A study of Mus musculus with 6 samples.

Results

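The enzymes described here are the glucuronosyltransferases, the sulfotransferases with the synthases of their sulfate donor, and the carboxylesterases of the mouse liver. They were chosen by symbol, from probe sets that the array annotation pairs with exactly 1 gene: Ugt1, Ugt2 or Ugt3 followed by a letter, Sult or Ces followed by a digit, and Papss1 and Papss2. This gave 38 genes of the 18193 genes tested, of which 10 were glucuronosyltransferases (UGT), 15 were sulfotransferases and PAPS synthases (SULT and Papss) and 13 were carboxylesterases (CES). No Ugt1 gene is among them, because the probe sets of that locus list several symbols. Where a gene had several probe sets, the one with the highest mean over the 6 arrays stood for it.

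The study compared liver RNA of 3 male mice labelled as L Pex5 -/- (KO) with that of 3 male mice labelled WT, all 10 weeks of age, on Affymetrix arrays, each liver on an array of its own. Pex5 brings enzymes into peroxisomes, the organelles that break down very long fatty acids. The background label is the same for both groups, mixed with Alb-Cre, and names a recombinase that the albumin promoter drives in hepatocytes. Arrays are called biological replicates, without a word on how the animals were paired or when they were processed. The p-values for single genes therefore set each group difference against the spread within the groups of these 6 samples, moderated over all genes. The pieces of liver hold all of its cell types, and fewer cells of a type cannot be told apart from less RNA per cell. All levels are log2 values, every difference is KO minus WT, and a difference of 1 is a 2-fold one.

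Conjugation makes fat-soluble molecules soluble enough to leave the body. Glucuronosyltransferases sit in the endoplasmic reticulum and join glucuronic acid, donated by UDP-glucuronic acid, to bilirubin, steroids, bile acids and drugs. Cytosolic sulfotransferases do the same with sulfate donated by PAPS, which the Papss enzymes make from sulfate and ATP. Carboxylesterases in the lumen of the endoplasmic reticulum cut ester bonds in drugs and in lipids, and often expose the group that is conjugated next.

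Before the enzymes, the arrays themselves were examined. The probe set used for Pex5 gave 9.35, 9.19 and 9.13 in KO livers, against 9.14, 8.88 and 9.11 in WT livers, and the 2 groups overlapped on the second of its 2 probe sets as well. Which stretch of the transcript was deleted and which stretch the probes read are not given in the sources used here, so these values do not check the genotype labels. Hepatocyte markers were present, with 0 of 5 past the limma test used for the enzymes (0 also at an unadjusted p under 0.05) and a summed level of 16.29 to 16.36 in KO livers and 16.22 to 16.30 in WT livers. Over all genes, arrays of 1 group correlated at 0.989 or more and arrays of different groups at 0.976 or less. The mean of 38 bacterial control probe sets was 9.38, 9.40 and 9.29 on KO arrays and 9.89, 9.81 and 9.91 on WT arrays, a difference of -0.51 KO minus WT (exact two-sided permutation test, p = 0.1, the smallest that 3 against 3 can give). These probe sets pool the BioB, BioC and BioDn controls with Dap, Lys, Phe and Thr. Trp, not above background here, and the phage Cre controls were left out. Centring the arrays on the pooled controls moves every difference up, so that the median over all genes is 0.46 in place of -0.055.

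Most of the enzymes that differed were lower in KO livers. By limma with Benjamini-Hochberg adjustment over all 18193 genes and a threshold of 0.05, 17 of the 38 genes were lower and 4 were higher, while 17 did not pass. Of all genes tested, 9.75% were lower and 14.2% higher, against 44.7% and 10.5% of the enzymes. All 3 KO arrays lay below all 3 WT arrays for 20 enzymes and above them for 6, where 22.6% and 22.1% of all genes did so. Their median difference was -0.27, and over all genes it was -0.055. Of the lower enzymes 13 were lower by at least 2-fold, and of the higher ones 3 were higher by as much. After centring on the bacterial controls 13 enzymes were lower and 15 higher, around a median of 0.24, while 409 of all genes were lower and 12970 higher.

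**Figure D1:**
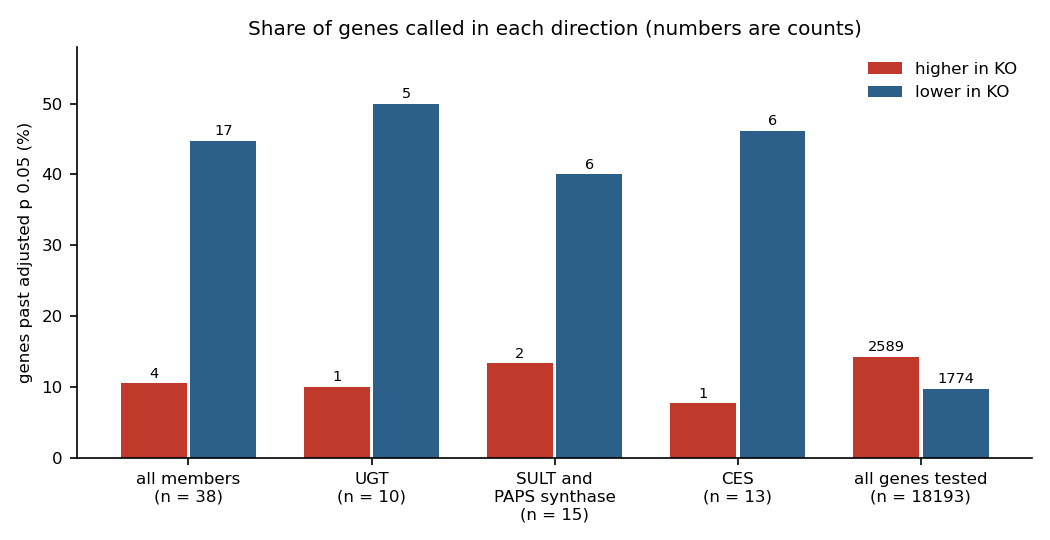
The bars give the percentage of genes past an adjusted p of 0.05 (limma) that were higher (red) or lower (blue) in KO livers, for all 38 enzymes, for each class and for all 18193 genes, with the counts above the bars. In each of the 3 classes the share that was lower is above the 9.75% over all genes.

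All 3 classes held such genes. Among glucuronosyltransferases 5 of 10 were lower and 1 was higher, with a median difference of -0.65. Among sulfotransferases and PAPS synthases 6 of 15 were lower and 2 higher, with a median of -0.20. Among carboxylesterases 6 of 13 were lower and 1 was higher, with a median of -0.28. Centred on the bacterial controls the medians were -0.14, 0.31 and 0.24 for the same classes. The probe sets of several enzymes were dim: 38 olfactory receptor genes gave a background of 4.90 (the 95th percentile of their means), and 9 of the 38 genes lay below it in both groups. Among the 16 enzymes with a mean above 10, 9 were lower and 2 higher, where 22.2% and 21.8% of the 1502 genes as bright were.

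**Figure D2:**
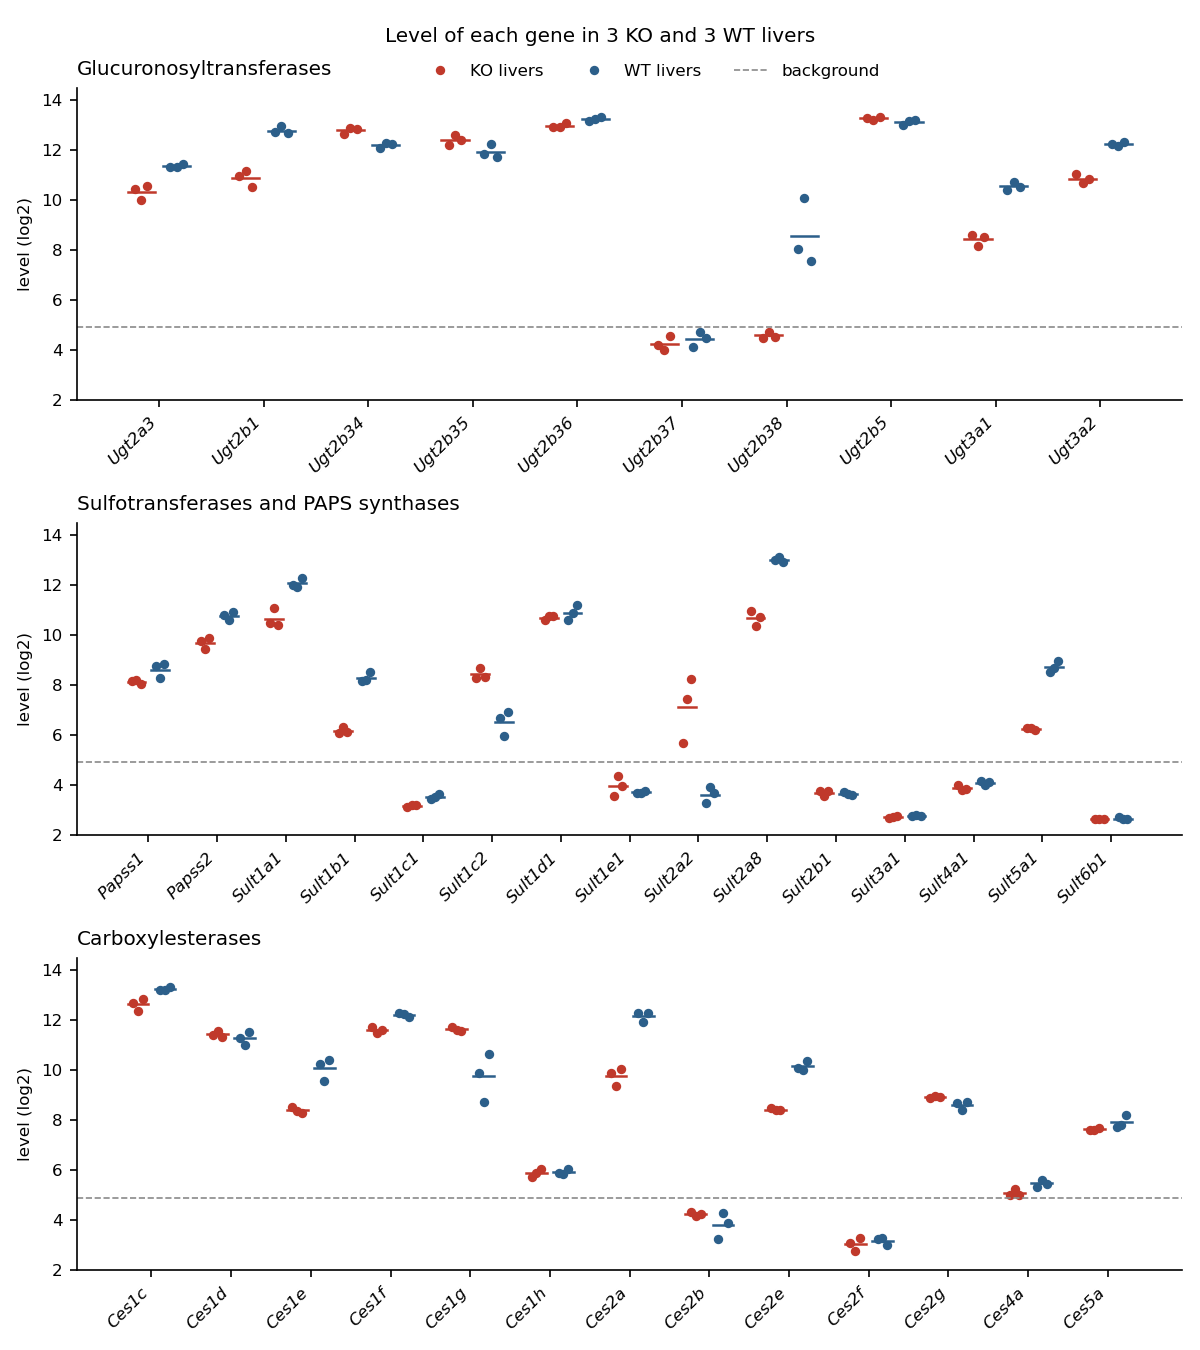
Each point is the log2 level of 1 gene on 1 array, with KO livers in red to the left of WT livers in blue, short lines for the means of 3 livers and a dashed line for background at 4.90. The KO and WT points of Ugt2b38, Sult5a1, Ces2a and Sult2a8 are far apart, with KO below, and those of Sult2a2 are apart with KO above.

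The Ugt2 family, whose enzymes take steroids, bile acids and drugs, lies in a row on chromosome 5 and held differences of both signs. Ugt2b38 stood at 4.48, 4.72 and 4.53 in KO livers, against 8.02, 10.09 and 7.54 in WT livers. The KO arrays all lay below background and the WT arrays all above it, WT liver 2 being far brighter than the other two. The difference was -3.97 ± 0.56 (SE, adjusted p = 0.00219), and with background in place of the KO arrays Ugt2b38 was at least 12.5-fold lower. Without WT liver 2 the difference was -3.20 (adjusted p = 0.000114), and the bound was at least 7.34-fold lower.

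The stretch before the start of Ugt2b38 is close to that of its relatives Ugt2b37 and Ugt2b5, neither of which passed the test. Ugt2b37 lay below background on every array, so its difference cannot be set against that of Ugt2b38. The 250 bases before the annotated start are given for these 3 genes from RefSeq (mouse assembly GRCm38.p6), each read 5′ to 3′ on its own strand, with capitals for the letters AGGTCA, a motif read by many nuclear receptors:
Ugt2b38, chr5:87424204-87424453, minus strand: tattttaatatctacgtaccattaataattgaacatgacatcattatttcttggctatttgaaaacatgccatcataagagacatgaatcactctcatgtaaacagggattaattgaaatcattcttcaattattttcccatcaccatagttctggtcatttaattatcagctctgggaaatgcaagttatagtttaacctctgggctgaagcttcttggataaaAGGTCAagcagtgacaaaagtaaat
Ugt2b37, chr5:87254789-87255038, minus strand: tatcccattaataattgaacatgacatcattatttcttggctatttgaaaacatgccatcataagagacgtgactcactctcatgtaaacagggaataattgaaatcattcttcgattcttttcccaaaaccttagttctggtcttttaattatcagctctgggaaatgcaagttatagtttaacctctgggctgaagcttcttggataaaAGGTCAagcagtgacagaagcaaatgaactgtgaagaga
Ugt2b5, chr5:87140341-87140590, minus strand: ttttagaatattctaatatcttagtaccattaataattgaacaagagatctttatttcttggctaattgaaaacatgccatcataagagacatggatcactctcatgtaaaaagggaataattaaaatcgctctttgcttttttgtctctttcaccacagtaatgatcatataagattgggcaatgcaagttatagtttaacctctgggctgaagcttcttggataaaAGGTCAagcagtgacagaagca
The stretches were aligned in pairs, with gaps allowed and no cost for overhanging ends, which count as not shared. Ugt2b38 shares 224 of these 250 bases (89.6%) with Ugt2b37 and 212 (84.8%) with Ugt2b5, and Ugt2b37 shares 199 (79.6%) with Ugt2b5. The motif AGGTCA begins 25 bases before the start in Ugt2b38, 39 bases before it in Ugt2b37 and 22 bases before it in Ugt2b5. Of the 3 genes Ugt2b38 alone passed the test. Ugt2b37 stood at 4.18, 3.98 and 4.54 in KO livers, against 4.11, 4.73 and 4.47 in WT livers, below background on every array, with overlapping groups and a difference of -0.21 ± 0.19 (SE, adjusted p = 0.448). Ugt2b5 stood at 13.28, 13.22 and 13.34 in KO livers, against 12.99, 13.16 and 13.21 in WT livers, with its KO arrays just above its WT arrays, 0.015 apart, and a difference of 0.16 ± 0.10 (SE, adjusted p = 0.253), which did not pass. Related genes of this kind have similar transcripts too, and whether the probes of each read only their own gene was not tested.

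Other members of the family differed by less. Ugt2b1, which joins glucuronic acid to steroids and drugs, stood at 10.98, 11.15 and 10.51 in KO livers, against 12.71, 12.96 and 12.67 in WT livers. The groups were well apart, and Ugt2b1 was 3.73-fold lower, with a difference of -1.90 ± 0.17 (SE, adjusted p = 0.000251). Ugt2a3, whose human counterpart conjugates bile acids, stood at 10.45, 9.99 and 10.57 in KO livers, against 11.34, 11.32 and 11.44 in WT livers. KO liver 2 was the lowest, yet every KO array lay below every WT array, and Ugt2a3 was 2.04-fold lower (-1.03 ± 0.15 SE, adjusted p = 0.0026).

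Ugt2b34 was the glucuronosyltransferase that went the other way. It stood at 12.63, 12.89 and 12.83 in KO livers, against 12.10, 12.28 and 12.25 in WT livers, without overlap, and was 1.49-fold higher (0.58 ± 0.11 SE, adjusted p = 0.0068). On the other of its 2 probe sets it differed by 0.73 and was also higher, in a fit over all 45037 probe sets that called 9.59% of them higher and 6.69% lower. The remaining 2 members did not pass: Ugt2b35 differed by 0.47 ± 0.16 (SE, adjusted p = 0.0707) and Ugt2b36 by -0.27 ± 0.09 (SE, adjusted p = 0.073). Ugt2b36 passed with trend and robust options (adjusted p = 0.0191), and its KO arrays all lay below its WT arrays. Ugt2b35, whose KO and WT arrays overlapped, passed without WT liver 2, at 0.62 (adjusted p = 0.0235), with the replicate number as a block (adjusted p = 0.0343) and after centring on the bacterial controls (0.98, adjusted p = 0.00155).

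Both Ugt3 genes, which are neighbours on chromosome 15, were lower. The Ugt3 enzymes are known in humans to use sugars other than glucuronic acid as donor. Ugt3a1 stood at 8.58, 8.17 and 8.51 in KO livers, against 10.41, 10.70 and 10.53 in WT livers. It was 4.37-fold lower, with a difference of -2.13 ± 0.14 (SE, adjusted p = 4.64e-05), and of -2.22 on its second probe set. Ugt3a2 stood at 11.02, 10.69 and 10.86 in KO livers, against 12.26, 12.16 and 12.32 in WT livers. Its arrays within each group lay within 0.33 of each other while the groups were 1.14 apart, and it was 2.62-fold lower (-1.39 ± 0.11 SE, adjusted p = 0.000133).

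**Figure D3:**
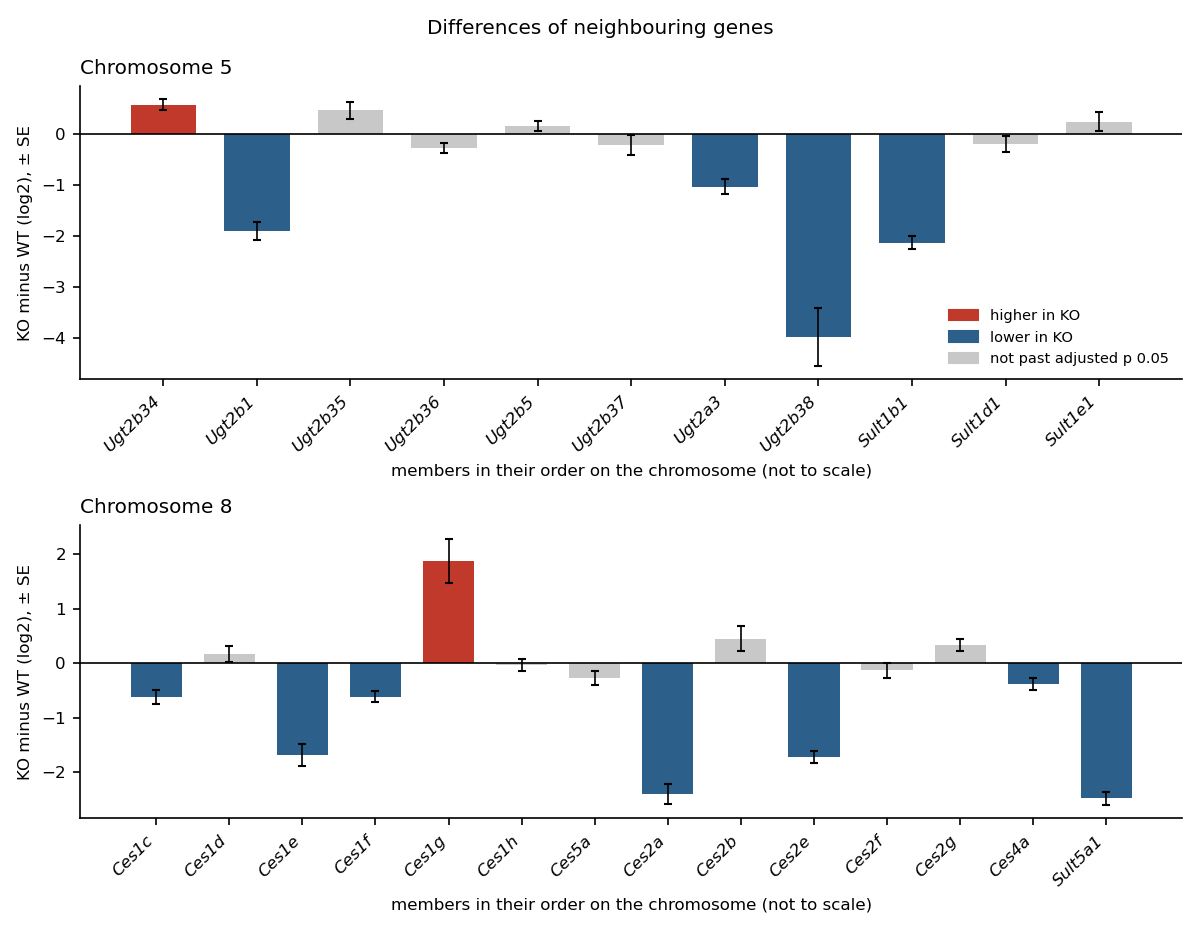
Bars give KO minus WT (log2, with the SE of limma's fit) for the enzymes of chromosome 5 and chromosome 8 in their order along the chromosome, red where higher in KO, blue where lower and grey where the test was not passed. On chromosome 5 Ugt2b34 (0.58) and Ugt2b1 (-1.90) are neighbours of opposite sign, as are Ces1f (-0.61) and Ces1g (1.88) on chromosome 8. Whether the probes of such neighbours read only their own gene was not tested.

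Among the sulfotransferases the Sult1 family, which sulfates phenols, thyroid hormone, catecholamines and oestrogen, held 3 lower and 1 higher gene of 6. Sult1b1, a sulfotransferase of thyroid hormone, stood at 6.09, 6.33 and 6.12 in KO livers, against 8.18, 8.20 and 8.53 in WT livers. The groups were far apart, and it was 4.36-fold lower (-2.12 ± 0.13 SE, adjusted p = 3.3e-05). Sult1a1, the main phenol sulfotransferase of liver, stood at 10.51, 11.08 and 10.41 in KO livers, against 12.02, 11.93 and 12.30 in WT livers. KO liver 2 was nearest to the WT livers without reaching them, and Sult1a1 was 2.68-fold lower (-1.42 ± 0.19 SE, adjusted p = 0.00154).

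Sult1c2 and Sult1c1 are neighbours on chromosome 17, and their differences had opposite signs. Sult1c2 stood at 8.30, 8.68 and 8.33 in KO livers, against 6.70, 5.95 and 6.93 in WT livers. WT liver 2 was the lowest of the WT livers, all of which lay below all KO livers, and Sult1c2 was 3.77-fold higher (1.91 ± 0.24 SE, adjusted p = 0.00128). Sult1c1 stood at 3.13, 3.20 and 3.21 in KO livers, against 3.45, 3.52 and 3.63 in WT livers, below background on all 6 arrays, so that its difference of -0.36 ± 0.09 (SE, adjusted p = 0.026) has no fold. That call was lost without any 1 of the 3 KO arrays or without WT liver 2 (adjusted p between 0.0575 and 0.101) and with quantile normalization (adjusted p = 0.0521), and the difference was 0.16 after centring on the bacterial controls.

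The other Sult1 genes did not pass. Sult1d1, which sulfates catecholamines in mice, differed by -0.19 ± 0.16 (SE, adjusted p = 0.399), and by -0.44 on its second probe set (adjusted p = 0.0547 over all probe sets). Sult1e1, the oestrogen sulfotransferase, was below background in both groups and differed by 0.24 ± 0.18 (SE, adjusted p = 0.355).

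The Sult2 family, which sulfates hydroxysteroids and bile acids, held a large difference in each direction. Sult2a8, a bile acid sulfotransferase of mouse liver, stood at 10.97, 10.35 and 10.72 in KO livers, against 13.02, 13.12 and 12.94 in WT livers. Its groups were 1.97 apart, and it was 5.08-fold lower (-2.35 ± 0.16 SE, adjusted p = 5.82e-05). Sult2a2 lies 4 coding genes away on chromosome 7 and stood at 5.69, 7.46 and 8.24 in KO livers, against 3.27, 3.92 and 3.67 in WT livers. All WT arrays were below background and the KO arrays were spread over 2.55, KO liver 1 being the lowest. The difference was 3.51 ± 0.56 (SE, adjusted p = 0.00352), and with background in place of the WT arrays Sult2a2 was at least 4.68-fold higher. Without KO liver 1 the difference was 4.23 (adjusted p = 0.000259), and the bound was at least 7.71-fold higher. The Sult2a genes of the mouse are near copies of each other, so which of them this probe set reads is uncertain. Sult2b1, a cholesterol sulfotransferase, was below background in both groups and differed by 0.04 ± 0.10 (SE, adjusted p = 0.803).

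Sult5a1 is a sulfotransferase whose substrates are little known. It stood at 6.27, 6.29 and 6.19 in KO livers, against 8.54, 8.69 and 8.97 in WT livers. The KO arrays lay within 0.099 of each other and the WT arrays within 0.43, and Sult5a1 was 5.58-fold lower (-2.48 ± 0.12 SE, adjusted p = 1.39e-05). The remaining families had 1 gene each and no call, all below background in both groups. Sult3a1, which sulfates amines, stood at 2.67, 2.70 and 2.76 in KO livers, against 2.75, 2.81 and 2.76 in WT livers. Sult4a1, known from brain, stood at 4.01, 3.79 and 3.86 in KO livers, against 4.15, 4.01 and 4.10 in WT livers. Sult6b1 stood at 2.62, 2.66 and 2.64 in KO livers, against 2.70, 2.64 and 2.64 in WT livers. For these 3 genes no level can be told from background on any array.

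The synthases of PAPS, the sulfate donor, were both below WT on all KO arrays. Papss2, the PAPS synthase that predominates in liver, stood at 9.79, 9.45 and 9.88 in KO livers, against 10.81, 10.61 and 10.94 in WT livers. It was 2.12-fold lower (-1.08 ± 0.14 SE, adjusted p = 0.00145), and 3 of its 4 probe sets passed as lower, all 4 lying between -1.29 and -0.28. Papss1 differed by -0.48 ± 0.15 (SE, adjusted p = 0.0538) and did not pass, but passed without WT liver 2 (-0.65, adjusted p = 0.00785), with quantile normalization (-0.60, adjusted p = 0.0339), after a filter on low values (adjusted p = 0.047) and with trend and robust options (adjusted p = 0.039).

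The Ces1 family, which cuts drug esters and stored lipids, lies in a row on chromosome 8 and held 3 lower genes and 1 higher gene of 6. Ces1e, also called egasyn, which holds beta-glucuronidase in the endoplasmic reticulum, stood at 8.52, 8.37 and 8.31 in KO livers, against 10.27, 9.57 and 10.41 in WT livers. WT liver 2 was the lowest of the WT livers and still above every KO liver, and Ces1e was 3.22-fold lower (-1.69 ± 0.21 SE, adjusted p = 0.0011). Ces1c, the carboxylesterase of mouse plasma, stood at 12.70, 12.38 and 12.87 in KO livers, against 13.23, 13.23 and 13.34 in WT livers, and was 1.54-fold lower (-0.62 ± 0.13 SE, adjusted p = 0.0131). Ces1f, a hydrolase of triacylglycerol, stood at 11.75, 11.49 and 11.60 in KO livers, against 12.28, 12.27 and 12.15 in WT livers. It was 1.53-fold lower (-0.61 ± 0.10 SE, adjusted p = 0.00421), and neither Ces1c nor Ces1f passed after centring on the bacterial controls, where they differed by -0.11 and -0.10. For the Ces1 genes, as for the Ces2 genes below, it was not tested whether each probe set reads only its own gene.

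Ces1g, an esterase linked to lipid handling in mice, was higher. It stood at 11.72, 11.63 and 11.57 in KO livers, against 9.89, 8.74 and 10.65 in WT livers. The KO arrays lay within 0.149 of each other and the WT arrays were spread over 1.91, WT liver 2 being the lowest. Ces1g was 3.68-fold higher (1.88 ± 0.40 SE, adjusted p = 0.0131), and without WT liver 2 the difference was 1.37 (adjusted p = 0.00668). With trend and robust options, which allow for genes of unequal spread, it did not pass (adjusted p = 0.058). Ces1d, the main triacylglycerol hydrolase of this family, did not pass at 0.17 ± 0.14 (SE, adjusted p = 0.42), its 3 probe sets ranging from -0.08 to 0.17, and neither did Ces1h (-0.04 ± 0.11 SE, adjusted p = 0.808).

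The Ces2 family, whose enzymes cut esters with small acyl groups, held 2 lower genes of 5. Ces2a stood at 9.90, 9.38 and 10.04 in KO livers, against 12.28, 11.93 and 12.29 in WT livers. The groups were 1.89 apart, and Ces2a was 5.26-fold lower (-2.40 ± 0.18 SE, adjusted p = 0.000111). Ces2e stood at 8.48, 8.39 and 8.43 in KO livers, against 10.10, 10.02 and 10.36 in WT livers. The KO arrays lay within 0.086 of each other, and Ces2e was 3.31-fold lower (-1.73 ± 0.11 SE, adjusted p = 4.64e-05). Ces2g had all its KO arrays above its WT arrays and differed by 0.33 ± 0.11 (SE, adjusted p = 0.0632), which did not pass, though it passed under 4 alternatives, with the arrays centred on their medians (0.37, adjusted p = 0.0417) or on the bacterial controls (0.85, adjusted p = 0.000267), with trend and robust options (adjusted p = 0.0486) and with array weights (0.39, adjusted p = 0.0252). Ces2b and Ces2f were below background in both groups, with differences of 0.44 ± 0.23 (SE, adjusted p = 0.192) and -0.13 ± 0.14 (SE, adjusted p = 0.514). Ces2b passed without WT liver 2 (0.69, adjusted p = 0.0412) and after centring on the bacterial controls (0.96, adjusted p = 0.00742).

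Ces4a was just inside the threshold. It stood at 5.03, 5.25 and 5.01 in KO livers, against 5.34, 5.63 and 5.46 in WT livers, close to background, and differed by -0.38 ± 0.11 (SE, adjusted p = 0.0458). It lost its call without any 1 of KO livers 1, 2 and 3 or WT livers 2 and 3 (adjusted p between 0.0538 and 0.145), and also with quantile normalization, array medians or trend and robust options, and the difference was 0.13 after centring on the bacterial controls. Ces5a, known as the urinary esterase cauxin in cats, stood at 7.60, 7.63 and 7.69 in KO livers, against 7.75, 7.80 and 8.20 in WT livers. All KO arrays lay below all WT arrays, but the difference of -0.28 ± 0.13 (SE, adjusted p = 0.163) did not pass.

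**Figure D4:**
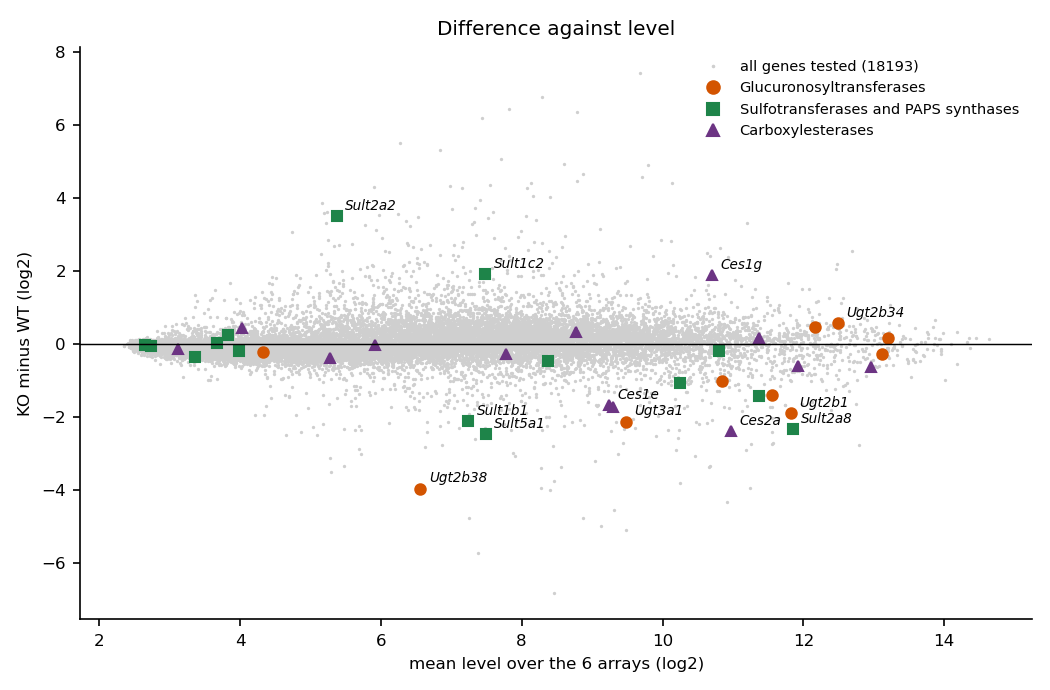
Each point is 1 gene, with its mean log2 level over 6 arrays on the horizontal axis and KO minus WT on the vertical axis, grey for all 18193 genes and coloured by enzyme class for the 38 enzymes. Ugt2b38 (-3.97) and Sult2a2 (3.51) are the extremes of the enzymes.

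The 300 bases around the start, 250 before and 50 after, were at hand for 32 of the 38 enzymes and for 27025 promoters in all, and were searched for short motifs on both strands. AGGTCA was found in 9 of 32 enzymes and in 4335 of all 27025 promoters, and the genes with it were Ugt2b35, Ugt2b36, Ugt2b37, Ugt2b38, Ugt2b5, Sult1b1, Sult1e1, Ces2a and Ces4a. Of the 15 lower enzymes with a promoter 4 held it, and of the 3 higher ones 0 did. A direct repeat of AGGTCA was in 0 of 32, with 1 base between (0.0444% of all promoters) as well as with 4 bases between (0.0111%). GTTAAT, a motif of HNF1, was in 5 of 32 (7.2% of all), TTCNNNGAA, the STAT5 element, in 3 of 32 (8.47%), GCGTG, the core of the Ahr element, in 3 of 32 (32.5%), and TGACNNNGC, the core of the NRF2 element, in 0 of 32 (12.5%). These are letters in a window, not sites shown to be bound.

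Genes around the donors of these enzymes were counted in both directions. The list holds genes that make or move UDP-glucuronic acid, sulfate and PAPS, and others beside that route, such as Gulo of vitamin C synthesis, Ugcg, a glucosylceramide synthase, and the phosphatases Bpnt1 and Bpnt2, which clear the spent donor. Of its 18 measured genes 5 were higher and 5 lower (27.8% each), where 14.2% of all genes were higher and 9.75% lower. The median was -0.012, and Bpnt2 is 1 of the higher and Gulo 1 of the lower ones. After centring on the bacterial controls 12 were higher and 1 lower, where 12970 of all 18193 genes were higher and 409 lower. Pgm2, a phosphoglucomutase, stood at 7.93, 7.80 and 7.69 in KO livers, against 6.30, 6.21 and 6.18 in WT livers, and was 2.98-fold higher (1.58 ± 0.10 SE, adjusted p = 4.26e-05). Ugdh, the dehydrogenase that makes UDP-glucuronic acid, stood at 12.73, 12.73 and 12.76 in KO livers, against 11.14, 11.44 and 11.06 in WT livers. The KO arrays lay within 0.03 of each other and far above the WT arrays, and Ugdh was 2.87-fold higher (1.52 ± 0.12 SE, adjusted p = 0.000108). Slc35d1, a carrier of UDP-glucuronic acid into the endoplasmic reticulum, was 2.61-fold higher (1.38 ± 0.10 SE, adjusted p = 6.59e-05), and is named after its value was seen. The 5 lower genes were Slc35b4 (2.04-fold lower, -1.03), Slc26a1 (1.72-fold, -0.79), Gulo (1.65-fold, -0.73), Slc35b1 (1.45-fold, -0.54) and Slc35d2 (1.40-fold, -0.49).

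**Figure D5:**
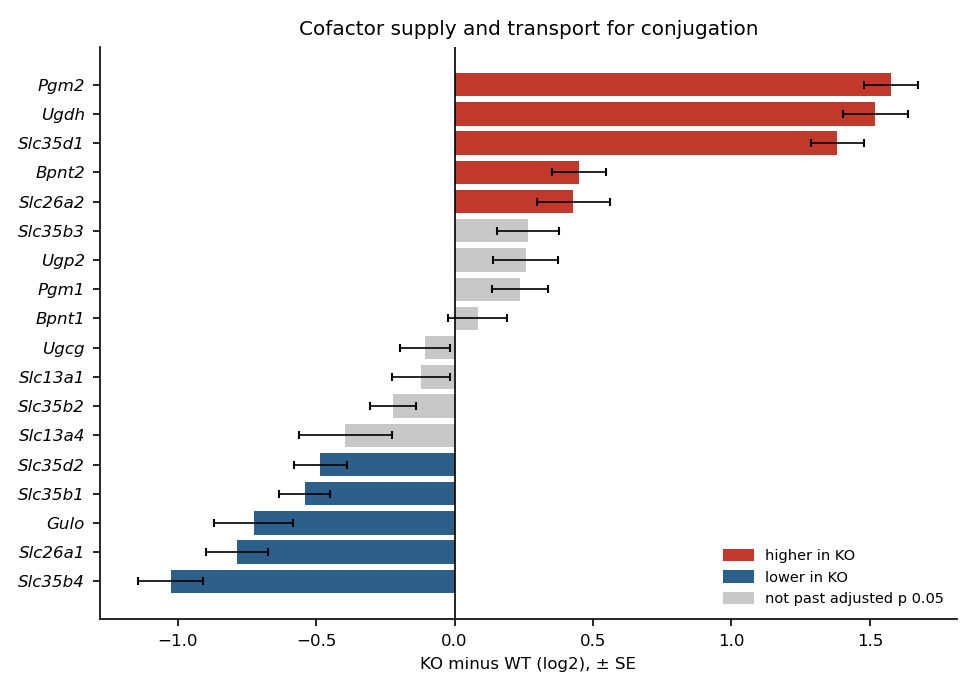
Bars give KO minus WT (log2, with the SE of limma's fit) for the 18 measured genes around donor supply, red where higher in KO, blue where lower and grey where the test was not passed. Pgm2 (1.58), Ugdh (1.52) and Slc35d1 (1.38) are at the top, and Slc35b4 (-1.03) is at the foot.

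Other steps around conjugation were counted the same way. Of 17 genes that remove conjugates or cut other esters and epoxides, 7 were higher and 2 lower (41.2% and 11.8%, median 0.065). Over all genes tested 14.2% were higher and 9.75% lower, so the lower share of this list is near that of all genes. Ephx1, the microsomal epoxide hydrolase, was 2.29-fold higher (1.19 ± 0.12 SE, adjusted p = 0.000466), and Notum, which removes a lipid from Wnt proteins, was 1.97-fold lower (-0.98 ± 0.14 SE, adjusted p = 0.00211). Of 12 other conjugating transferases 1 was higher and 5 lower (8.33% and 41.7%, median -0.42). Nnmt, which methylates nicotinamide, was 4.93-fold lower (-2.30 ± 0.42 SE, adjusted p = 0.00654), and Hnmt, which methylates histamine, was 2.79-fold lower (-1.48 ± 0.10 SE, adjusted p = 7.05e-05). Centred on the bacterial controls the first list had 13 higher and 1 lower and the second 4 higher and 3 lower. Of all 18193 genes 12970 were then higher and 409 lower.

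Of 11 carriers of conjugates, a list that holds export pumps and uptake carriers, 4 were higher and 5 lower (36.4% and 45.5%). Over all genes 14.2% were higher and 9.75% lower. Centred on the bacterial controls 5 carriers were higher and 4 lower, where 12970 of all 18193 genes were higher and 409 lower. Abcc4, an export pump for sulfated bile acids and steroids, stood at 10.90, 11.32 and 10.89 in KO livers, against 4.55, 4.68 and 4.55 in WT livers, a difference of 6.44 ± 0.13 (SE, adjusted p = 7.53e-07), with all WT arrays below background. Slco1a1, an uptake carrier, stood at 6.03, 8.42 and 5.45 in KO livers, against 11.57, 12.11 and 11.19 in WT livers, a difference of -4.99 ± 0.68 (SE, adjusted p = 0.00177), which was -5.88 without KO liver 2.

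Several receptors and factors are known to control genes of these families. Of 19 measured, 2 were higher and 3 lower, with a median of -0.32. These are 10.5% and 15.8% of the list, near the 14.2% and 9.75% of all genes, and 1 of the 3 lower genes, Vdr, was below background in both groups. Nr1i3, the constitutive androstane receptor CAR, which activates many UGT, SULT and CES genes, stood at 8.73, 8.41 and 8.16 in KO livers, against 10.00, 10.15 and 10.11 in WT livers. The groups were far apart, and Nr1i3 was 3.13-fold lower (-1.65 ± 0.15 SE, adjusted p = 0.000241). Nr1h4, the bile acid receptor FXR, was 1.58-fold higher (0.66 ± 0.12 SE, adjusted p = 0.00582). After centring on the bacterial controls 8 of the 19 were higher and 1 lower, where 12970 of all 18193 genes were higher and 409 lower. The part of these receptors and factors in the enzymes' differences was not tested.

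Some enzymes of these families are known to differ between male and female mouse livers, so lists of sex-biased liver genes were read beside them, all 6 livers being male. Of 12 measured male-biased genes 9 were lower and 0 higher (median -2.33), and of 12 female-biased genes 8 were higher and 0 lower (median 1.97). Those are 75.0% and 66.7%, where 9.75% of all genes were lower and 14.2% higher. At an unadjusted p under 0.05 in the same limma fit these counts in the other direction were 0 for the male-biased and 1 for the female-biased genes. Centred on the bacterial controls, 8 male-biased genes were lower and 2 higher, and 11 female-biased genes were higher. Of all 18193 genes 12970 were then higher and 409 lower. Hsd3b5, a steroid dehydrogenase of male liver, stood at 5.25, 5.48 and 4.39 in KO livers, against 11.89, 12.04 and 11.69 in WT livers, a difference of -6.84 ± 0.26 (SE, adjusted p = 6.66e-06). Cyp2b9, a cytochrome P450 of female liver, stood at 11.32, 11.32 and 10.58 in KO livers, against 7.04, 4.71 and 6.66 in WT livers, a difference of 4.94 ± 0.55 (SE, adjusted p = 0.000696), which was 4.23 without WT liver 2. Cyp4a14 differed by 7.44 ± 0.60 (SE, adjusted p = 0.000138), and by 8.27 without WT liver 2. The female-biased list holds Cyp4a14, Acot3 and Cd36, which are also targets of PPARalpha, and Slco1a1 stands in the male-biased list as well as among the carriers. These lists share arrays with the enzymes, and their part in the enzymes' differences was not tested.

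Markers of other cell types were examined for the same livers, beside the 14.2% of all genes that were higher and the 9.75% that were lower. Of 5 markers of sinusoidal endothelium 1 was higher and 2 lower, with a summed level of 10.47 to 10.66 in KO livers and 10.82 to 11.09 in WT livers. Of 6 stellate cell and fibroblast markers 2 were lower, with a summed level of 11.50 to 11.64 in KO livers and 11.84 to 11.99 in WT livers. Of 4 bile duct markers 1 was lower, with summed levels of 6.97 to 7.09 in KO livers and 7.17 to 7.46 in WT livers. Of 2 pancreas markers, both with group means below background, 1 was lower and 1 did not pass. None of 6 macrophage, 3 lymphocyte and blood, 2 adipocyte, 3 intestinal and 3 kidney markers passed (limma), and the adipocyte and kidney markers were at background. At an unadjusted p under 0.05, 1 adipocyte and 1 intestinal marker were lower and none of the others passed. The part of these cell types in the enzymes' differences was not tested.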

How the data were processed

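RNA from 3 KO and 3 WT livers was hybridised to Affymetrix arrays. The authors deposited a log2 level for each probe set, computed by RMA according to the submitters' processing notes, with no version. RMA corrects background, makes the arrays' probe distributions equal and summarises each probe set. It therefore removes a shift of most transcripts, and it compresses differences of dim probe sets. The values lie between 2.15 and 14.90, as on a log2 scale. The sample titles give each array's group and replicate number.

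Of 45101 probe sets 64 are controls, 34945 have 1 symbol and 932 have several. Symbols were checked against the gene table of GRCm38.p6. Each of 18193 genes was represented by its brightest probe set and fitted by lmFit and eBayes of limma 3.58.1 under R 4.3.3 (two-sided tests), with Benjamini-Hochberg adjustment over all genes and no filter. The same fit over all 45037 probe sets served for genes with several. Values in all arrays are given for the 4 called genes with the largest difference in each subfamily, or the brightest where none was called. From each further list up to 2 called genes were named by the size of their difference, and any others were added. The enzymes, lists, motifs and rules were chosen with earlier results of these data known.

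Simulated data had 200 of 18193 genes changed. There the fit recovered 22.4% of changes of 0.5, 68.3% of 1 and 98.6% of 2 (log2), with 4.51% false calls. In the livers 2589 genes were called higher and 1774 lower, and Benjamini-Hochberg adjustment is stricter where fewer genes differ. These percentages may therefore understate the recovery in the livers, which was not measured. A gene without a call is not shown to be unchanged. The number of arrays limits the precision. In 16 alternatives the replicate number was a block, 12032 genes above background were kept, arrays were quantile normalized or centred on their medians or on 38 bacterial controls, probe sets were averaged or those with a suffix dropped, eBayes had trend and robust options, arrays were weighted, the threshold was 0.01, or 1 of the 6 arrays was left out.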

Additional observations from a re-analysis of the deposited data

How the results depend on the processing

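Of the 21 calls 16 held under each of the 16 alternatives that gave a value (13 lower and 3 higher), the exceptions being Sult1c1, Ces4a, Ces1c, Ces1f and Ces1g, and 4 of the 17 genes without a call were not called under any. Centring on the bacterial controls gave 15 higher enzymes (7 sulfotransferases and PAPS synthases, 5 carboxylesterases and 3 glucuronosyltransferases) and 3 lower carboxylesterases, and, as it adds 0.51 to every difference, turned the sign of 12 enzymes: Ces4a (0.13) and Sult1c1 (0.16), which lost their calls, Sult3a1 (0.45), Sult4a1 (0.31), Sult6b1 (0.49) and Ces1h (0.47), which passed, and Papss1 (0.032), Ces5a (0.24), Ugt2b36 (0.24), Ugt2b37 (0.30), Sult1d1 (0.32) and Ces2f (0.38), not called either way. Uncalled, Sult6b1 also turned with quantile normalization (0.029), array medians (0.021) and without WT replicate 1 (from -0.031 to 0.0035 over the arrays left out), and Ces1h without KO replicate 1 or WT replicate 3 (from -0.12 to 0.032). The share of higher genes among all called genes was 59.3%, and 51.8% with quantile normalization, 66.2% centred on array medians and 96.9% centred on the controls. Higher carboxylesterases were 2 with array medians or array weights and 0 at a threshold of 0.01 (limma), where 1285 of all genes were higher and 732 lower, against 2589 and 1774. Leaving out 1 array gave 4 to 6 higher and 15 to 17 lower enzymes, 1 to 2 higher glucuronosyltransferases and 1 to 2 higher carboxylesterases, the upper ends of the higher counts without WT replicate 2. Without KO replicate 2, 1 or 3 the calls over all genes were 1497 and 888, 1604 and 984, and 1956 and 1156. With the replicate number as a block 2 glucuronosyltransferases, Ugt2b34 and Ugt2b35, were higher. Deviations of arrays with the same number correlated at 0.105, -0.018 and 0.105. Arrays of unlike number were not compared, so these values cannot show whether the numbers pair the animals, and the main fit left pairing out. Dim genes gave no value after the filter, nor did Sult1a1, Sult6b1 and Ces1f without suffixed probe sets.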

Other observations

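Probe sets that list several genes of these families stood outside the 38 genes, since their signal belongs to no single one. The probe set shared by Ces3a and Ces3b, which are further carboxylesterases, averaged 12.04 ± 0.26 in KO livers and 13.42 ± 0.05 in WT livers (SD, n = 3 each), a difference of -1.37 ± 0.14 (SE, limma adjusted p = 0.000594 over all probe sets). The 3 probe sets shared by 8 genes of the Ugt1a locus, which encode the enzymes that conjugate bilirubin and phenols from 1 set of common exons, differed by 0.0093, 0.0014 and -0.0070, with adjusted p of 0.954, 0.993 and 0.967. A rise of 1 of these genes beside a fall of another would not show in a shared probe set. The probe set of Ugt2a1 and Ugt2a2 lay below background on every array and differed by -0.39 (adjusted p = 0.0623).

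WT liver 3 was the highest of the 3 WT livers for 22 of the 38 enzymes and WT liver 1 for 4. Among KO livers the highest was KO liver 2 for 14, KO liver 3 for 14 and KO liver 1 for 10.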
